A study of Arabidopsis thaliana with 12 samples.

Results

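The difference in salt response between an Arabidopsis line called 6-6 and wild type (WT) was examined gene by gene in root tips. For each gene, the response of a line is the log2 ratio of its group value on NaCl to that on MS, and the difference is the response of 6-6 minus the response of WT, so that 1 on this scale is a 2-fold larger ratio in 6-6. Genes entered when they were nuclear, tested by the authors for salt in both lines, and at 1 FPKM or more (fragments normalised to transcript length and to the size of the library) in at least one group of each line. Of 33557 listed genes, 33278 were nuclear and 19434 of these were tested in both lines. The FPKM minimum removed 656, which left 18778 genes. A ratio, and so a difference, could be formed for 18763 of them, and the other 15 had a group at 0.

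The series holds 12 samples of Arabidopsis thaliana in 4 groups of 3, namely WT on MS, WT on NaCl, 6-6 on MS and 6-6 on NaCl. Seedlings of both lines were 8 days old, raised at 22 °C under long days (16 h light, 8 h dark). They spent the last 24 h on half-strength MS, the Murashige and Skoog medium, either alone or with NaCl added, and the final 1 cm or so of each root was cut for RNA. The NaCl concentration, the accession of the WT and the nature of 6-6 are not given in the sources used here, and the series title concerns ITPK4, an inositol phosphate kinase. The authors' tables hold 1 value per group with the samples combined, so no error between samples, no count and no depth stand behind a value. Nothing in the labels tells whether samples of one group were grown apart, so the authors' p-values may reflect technical spread alone.

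Salt reaches a root as an osmotic and an ionic stress. Abscisic acid (ABA) then accumulates and switches on protective proteins such as the dehydrins, growth of the root tip slows, and the cell wall and its cross-linking are remodelled. Extensins are rod-like hydroxyproline-rich glycoproteins that peroxidases cross-link into the wall, and many of them are expressed in root hairs. Ribosomal proteins and histones follow growth and division, and the jasmonate pathway connects wounding and defence to growth.

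ITPK4 (AT2G43980) stood at 25.4 FPKM in WT on MS, 27.3 FPKM in WT on NaCl, 2.98 FPKM in 6-6 on MS and 2.69 FPKM in 6-6 on NaCl. It was low in 6-6 on both media, with q-values between the lines of 0.00396 on MS and 0.00186 on NaCl in the authors' deposited tables. Its difference in salt response was -0.25, which did not pass the test of the difference.

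One group stood apart in RNA from outside the nucleus, since the organelle genes were high in 6-6 on MS, and every difference includes that group. For most genes the responses of the lines lay close together. The difference had a median of 0.02 and quartiles of -0.12 and 0.17, 90% of genes lay between -0.39 and 0.52, and the full range ran from -4.58 to 6.10. It lay above 0 for 53.7% of genes and below 0 for 46.3%. A difference of at least 1 in size was found for 328 genes (1.75%), of which 205 (1.09%) were higher in 6-6 and 123 (0.656%) lower. Most of these genes were weakly expressed. With the genes in 4 equal classes by mean level, the lowest class held 263 of the 328, and the highest group value had a median of 3.46 FPKM among the 205 and 3.59 FPKM among the 123, against 16.2 FPKM over all genes.

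The difference was tested with standard errors that the authors' own results imply, since no values per sample were at hand. For each line the standard error of the response was taken as the response divided by the authors' statistic or by the normal deviate belonging to their p-value, whichever gave the larger error. The resulting two-sided normal p-values were adjusted by Benjamini-Hochberg over all genes. One gene passed at an adjusted p below 0.05, the dehydrin gene RAB18, which was lower in 6-6 (0.00533% of 18763), and none passed as higher (0%). At an unadjusted p below 0.05 there were 292 genes (1.56%). This error is cautious, as the SD of the standardised differences was 0.71 where 1 would be usual. With the error from the p-value alone 58 genes passed (0.309%), 31 higher (0.165%) and 27 lower (0.144%), and 1344 had an unadjusted p below 0.05 (7.16%). With the error from the statistic alone 22 passed (0.117%), 11 in each direction (0.0586%), and 386 had an unadjusted p below 0.05 (2.06%). RAB18 aside, the differences of named genes are descriptions, and it is said which of them passed with the error from the p-value alone.

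The authors' calls describe what lay behind these differences. At a q-value below 0.05 in the authors' deposited tables, salt called 2132 genes (11.4%) as risen and 2027 (10.8%) as fallen in WT, and 2579 (13.7%) as risen and 1930 (10.3%) as fallen in 6-6. Of the 1535 genes that rose in both lines, 60.1% had the larger ratio in 6-6, with median responses of 0.71 in WT and 0.81 in 6-6. Of the 1304 that fell in both, 54.3% had the larger fall in 6-6, with medians of -0.62 in WT and -0.64 in 6-6. Genes called in at least one line and at least 1 apart were then sorted by kind. There were 91 (0.485%) with a response of the same sign and larger size in 6-6, 45 (0.24%) with the same sign and smaller size, and 60 (0.32%) with opposite signs. Among the 91, the difference was above 0 for 68 (0.362%) and below 0 for 23 (0.123%), so a stronger rise in 6-6 was the more frequent form. Above and below 0 were 20 (0.107%) and 25 (0.133%) of the 45, and 28 (0.149%) and 32 (0.171%) of the 60.

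**Figure D1:**
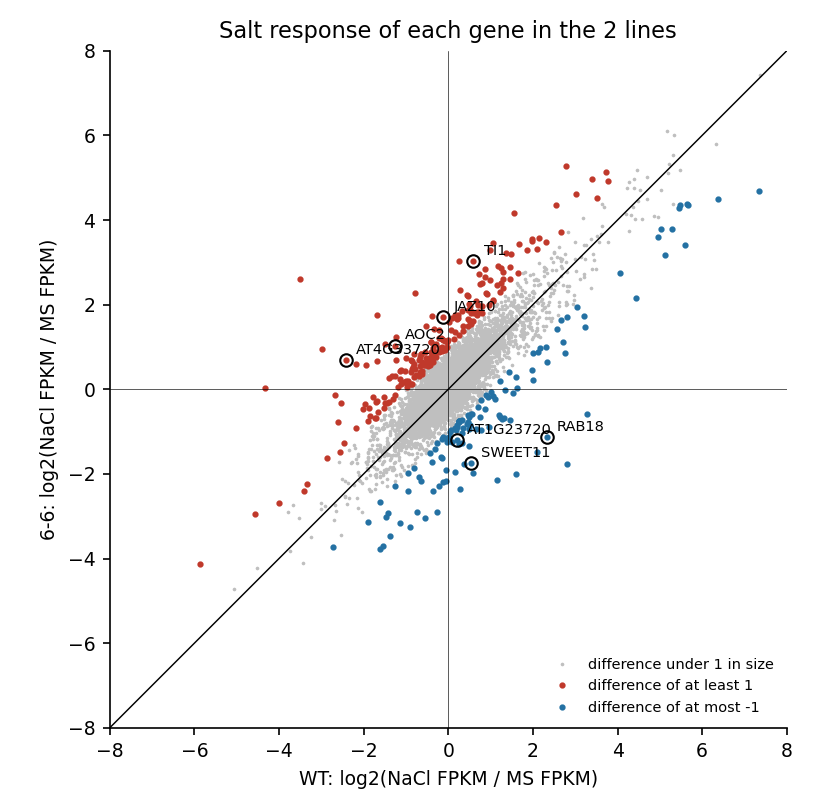
Salt response of 18763 genes in WT (x axis) and in 6-6 (y axis), each as log2 of the NaCl to MS ratio of the group FPKM, with the line of equal response. Red points are the 205 genes with a difference of at least 1, blue points the 123 at or below -1, and named genes are circled; most genes lie close to the line.

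The same difference can be read as the gap between the lines on NaCl minus the gap on MS, since the comparisons share the 4 groups. Genes with a difference of at least 1 had a median log2 ratio of 6-6 to WT of -0.62 on MS and 0.75 on NaCl. Genes at or below -1 had medians of 0.71 on MS and -0.67 on NaCl. Picking genes by the difference itself favours gaps of opposite sign on NaCl and MS, so these medians follow in part from the cut and are not a separate result. A high or low value in 1 MS group enters both the salt response and the gap on MS.

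Opposite calls were few. Of 2858 genes (15.2%) called for salt in both lines, 19 (0.101%) moved in opposite directions, 7 (0.0373%) rising in WT and falling in 6-6 and 12 (0.064%) the reverse. The dehydrin RAB18, an ABA-responsive protective protein and a common reporter of ABA signalling, stood at 0.415 FPKM in WT on MS, 2.08 FPKM in WT on NaCl, 1.69 FPKM in 6-6 on MS and 0.771 FPKM in 6-6 on NaCl. It was high in WT on NaCl and in 6-6 on MS and low in the other groups. It rose in WT (log2 2.32) and fell in 6-6 (log2 -1.13), with q-values of 0.000482 and 0.00516 in the authors' deposited tables. The difference was -3.45 with an implied standard error of 0.67 and an adjusted p of 0.00383 (two-sided normal test, Benjamini-Hochberg over all genes), and it passed with either error alone. On the log2(FPKM + 1) scale the difference was -1.72. All 4 values were near or below 2 FPKM, and RAB18 dropped out of the genes tested when 5 FPKM was required.

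The promoter of RAB18 is shown because ABA-responsive factors are known to bind elements with the core ACGTG, which capitals mark on either strand. The 300 bases run from 250 before to 50 after the start of the RefSeq gene, which here lies upstream of the start in the authors' files, and were cut from the RefSeq assembly TAIR10.1 (chr5:26519398-26519697, minus strand).
RAB18: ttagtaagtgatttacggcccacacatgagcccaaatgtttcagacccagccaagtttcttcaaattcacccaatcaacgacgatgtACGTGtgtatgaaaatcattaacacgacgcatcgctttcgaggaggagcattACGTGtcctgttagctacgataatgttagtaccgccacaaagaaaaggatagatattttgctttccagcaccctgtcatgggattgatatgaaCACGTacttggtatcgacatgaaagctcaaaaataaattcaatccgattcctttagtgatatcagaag
It holds 3 matches. Of 18711 promoters of the same length, 28.0% hold at least one ACGTG, as do 32.2% of the 205 with a difference of at least 1 and 28.9% of the 121 at or below -1 that have a promoter. A match is a string of letters and not a shown site.

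The other genes that rose in WT and fell in 6-6 include SWEET11, a sucrose exporter. It stood at 4.63 FPKM in WT on MS, 6.69 FPKM in WT on NaCl, 2.74 FPKM in 6-6 on MS and 0.824 FPKM in 6-6 on NaCl. Its level was lowest in 6-6 on NaCl, and the difference was -2.27 (adjusted p 0.361; 0.00289 with the error from the p-value alone). AT2G01008 had a difference of -3.29 at levels of at most 3.86 FPKM, and it has a near-identical copy, AT3G41762, between which reads could be split. An aspartyl protease, AT5G48430, had -0.88, and AT4G00810, a 60S acidic ribosomal protein, went from 496 to 600 FPKM in WT and from 559 to 450 FPKM in 6-6, a difference of -0.59. The remaining pair, AT3G28550 and AT3G54580, are extensins and are described with that family.

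Among the 12 genes that fell in WT and rose in 6-6, AOC2, an allene oxide cyclase of jasmonate synthesis, had the largest difference. It stood at 2.57 FPKM in WT on MS, 1.07 FPKM in WT on NaCl, 1.42 FPKM in 6-6 on MS and 2.91 FPKM in 6-6 on NaCl, a difference of 2.30 (adjusted p 1; 0.00184 with the error from the p-value alone). The lipid transfer protein AT1G73780 went from 65.1 to 32.6 FPKM in WT and from 47.6 to 79.5 FPKM in 6-6, a difference of 1.74. ATMPK13, a mitogen-activated protein kinase, had a difference of 1.52 at levels below 4 FPKM. Wall-related genes followed. EXPA6, an expansin that loosens walls, went from 11.7 to 9.03 FPKM in WT and from 11.7 to 16.6 FPKM in 6-6 (difference 0.88), GH9B5, a glycosyl hydrolase, had 0.93, and RHS13, a root hair specific gene, went from 194 to 153 FPKM in WT and from 178 to 221 FPKM in 6-6 (difference 0.67). The others were AT4G24265 (1.23), AT1G73210 (1.103), AT5G08770 (0.88), AT5G56747, annotated as a transposable element gene (0.76), AT4G29690, an alkaline-phosphatase-like protein (0.70), and AT3G51140 (0.66), whose locus in the files is shared with another gene. Of these 12, all but AT3G51140, AT5G56747 and GH9B5 passed with the error from the p-value alone. That error is derived from the same p-values by which opposite calls were picked. Passing with it is therefore not separate support for any opposite call in either direction, SWEET11 included.

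**Figure D2:**
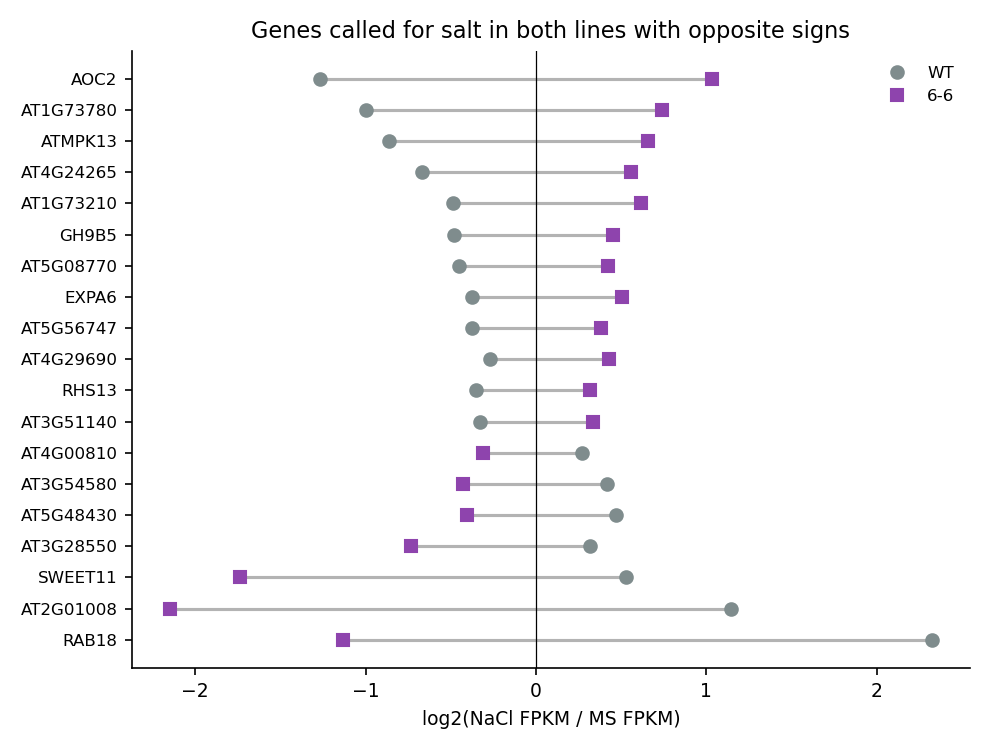
Salt response (log2 NaCl to MS ratio of the group FPKM, x axis) in WT (grey circles) and 6-6 (purple squares) of the 19 genes called for salt in both lines with opposite signs. RAB18, AT2G01008 and SWEET11 lie furthest apart among those that rose in WT, and AOC2 and AT1G73780 among those that fell in WT.

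The extensins had the lowest median difference of the 84 families with 8 or more genes, which were drawn by keywords in the gene descriptions. Their median was -0.61 against 0.02 over all genes, with quartiles of -0.83 and -0.26, and 15 of 17 lay below 0, where 46.3% of all genes did. In WT 9 rose with salt and 5 fell (11.4% and 10.8% of all genes), and in 6-6 1 rose and 8 fell (13.7% and 10.3%). On MS 14 of 17 were higher in 6-6 and none lower (0.885% and 1.93% of all genes), and on NaCl 9 were higher and none lower (2.96% and 3.69% of all genes). The median log2 ratio of 6-6 to WT was 1.02 on MS and 0.40 on NaCl. All 17 had a higher value in 6-6 than in WT on MS, and 6-6 on MS was the highest of the 4 groups for 15. WT on MS was the lowest group for 10. Each group holds 1 value per gene, so no group could be left out. Organelle genes, which are not nuclear and stand outside the rule, also had high values in 6-6 on MS, with a median log2 ratio to WT of 1.27 on MS and -0.28 on NaCl and 6-6 on MS as the highest group for 64 of 67. Their part in the extensin values was not tested. With the error from the p-value alone, 6 of the extensins passed, all lower in 6-6 (0.144% of all genes passed as lower). Extensins are related in sequence, so the 6 are not independent. AT3G28550 and AT3G54580 among them are opposite calls, picked by the same p-values from which that error is derived.

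AT1G23720, a proline-rich extensin-like gene, stood at 263 FPKM in WT on MS, 303 FPKM in WT on NaCl, 590 FPKM in 6-6 on MS and 256 FPKM in 6-6 on NaCl. The values of the other 3 groups lay close together and 6-6 on MS stood apart. The difference was -1.40 with an implied standard error of 0.33 (adjusted p 0.0932; 0.00989 with the error from the p-value alone and 2.04e-06 with that from the statistic alone). AT3G28550 had the same shape, at 154 and 192 FPKM in WT and 309 and 186 FPKM in 6-6 on MS and NaCl, a difference of -1.05. AT4G08410 started lower, at 3.23 and 6.77 FPKM in WT and 9.20 and 8.20 FPKM in 6-6, a difference of -1.23. There it was WT on MS that stood apart, at the low end. AT3G54580 (-0.85), EXT10 (-0.83) and AT4G08400 (-0.77) completed the 6 that passed with the error from the p-value alone. EXT3, an extensin needed for normal cell plates in the embryo, had the highest level of the family and went from 1333 to 1037 FPKM in WT and from 2252 to 1064 FPKM in 6-6, a difference of -0.72.

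Not every member followed. EXT4 went from 96.3 to 54.7 FPKM in WT and from 261 to 150 FPKM in 6-6, so that its level was higher in 6-6 on both media while its difference was 0.02. EXT12 had 0.50, and the leucine-rich repeat extensins LRX1 and LRX2, chimeric wall proteins of root hairs and roots, had -0.11 and -0.29. Root hair markers are given beside the extensins because many extensins are root hair genes. The 4 markers summed to 347 FPKM in WT on MS and 444 FPKM in WT on NaCl, and to 396 and 530 FPKM in 6-6. Their differences lay between -0.08 and 0.15. One extensin, AT1G26250, has a near-identical copy in the genome.

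**Figure D3:**
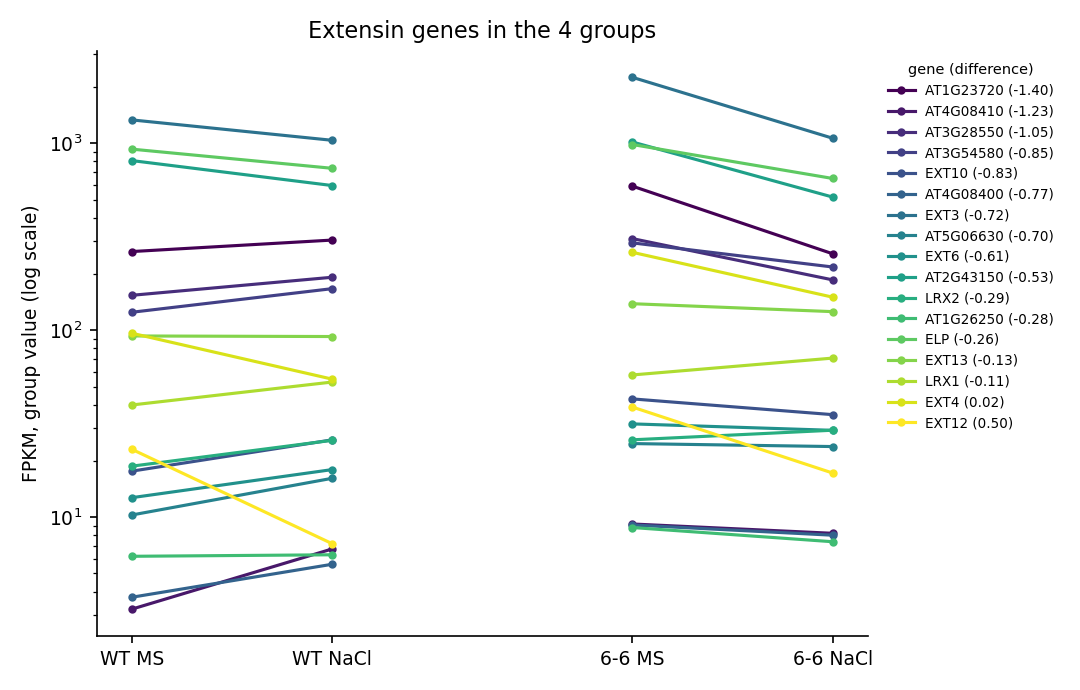
Group FPKM of the 17 extensin genes on a log scale in WT and 6-6 on MS and on NaCl, 1 value per group with no error available, with lines joining the media within a line and colours ordered by the difference given in the key. The value on MS is higher in 6-6 than in WT for all 17, and most lines slope up or stay level in WT and slope down in 6-6.

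The promoters of the 4 extensins with the lowest differences are shown because this family had the lowest median. They are cut and marked as for RAB18, with TTGACC, a form of the W-box that WRKY factors are known to bind, also in capitals. Their positions in TAIR10.1 are chr1:8388047-8388346 (plus strand) for AT1G23720, chr4:5341160-5341459 (minus) for AT4G08410, chr3:10703969-10704268 (minus) for AT3G28550 and chr3:20203870-20204169 (minus) for AT3G54580.
AT1G23720: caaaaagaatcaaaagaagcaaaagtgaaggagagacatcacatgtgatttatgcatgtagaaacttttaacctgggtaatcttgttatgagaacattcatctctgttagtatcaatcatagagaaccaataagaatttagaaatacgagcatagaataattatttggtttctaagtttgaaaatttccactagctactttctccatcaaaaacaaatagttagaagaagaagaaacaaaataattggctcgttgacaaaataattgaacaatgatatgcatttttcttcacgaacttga
AT4G08410: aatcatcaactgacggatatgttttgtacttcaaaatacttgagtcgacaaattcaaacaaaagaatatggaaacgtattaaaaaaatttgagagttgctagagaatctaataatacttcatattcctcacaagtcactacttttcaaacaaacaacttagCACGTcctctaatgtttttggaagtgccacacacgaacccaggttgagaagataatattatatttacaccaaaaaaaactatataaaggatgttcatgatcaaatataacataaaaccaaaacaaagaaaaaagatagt
AT3G28550: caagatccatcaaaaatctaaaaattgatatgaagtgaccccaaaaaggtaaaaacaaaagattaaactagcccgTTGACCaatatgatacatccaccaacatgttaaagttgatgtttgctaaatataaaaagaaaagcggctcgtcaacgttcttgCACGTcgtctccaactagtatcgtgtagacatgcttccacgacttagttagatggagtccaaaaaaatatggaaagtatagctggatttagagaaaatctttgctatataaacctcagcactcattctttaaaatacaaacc
AT3G54580: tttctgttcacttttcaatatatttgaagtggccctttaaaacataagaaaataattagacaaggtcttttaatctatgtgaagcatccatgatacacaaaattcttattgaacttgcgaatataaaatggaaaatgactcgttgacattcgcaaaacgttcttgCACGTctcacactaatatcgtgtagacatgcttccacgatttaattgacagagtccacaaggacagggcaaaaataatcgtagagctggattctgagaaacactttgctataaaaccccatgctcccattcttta
AT1G23720 has no ACGTG in this window and the other 3 have 1 each. Except for AT4G08410, these windows end upstream of the gene start used by the authors, which for AT1G23720 is 8388655. Bases between a window and that start were not searched. Over the family 10 of 17 promoters (58.8%) hold ACGTG, against 28.0% of all 18711. Of the other strings searched on both strands, CACGTG, the G-box that contains ACGTG, was in 0 of 17 (8.74% of all), TTGACC in 2 (14.4% of all), TTGACT in 1 (22.1% of all), ACCGAC, the core of the drought-responsive element, in 0 (6.38% of all) and AGCCGCC, the GCC box, in 0 (0.818% of all). Extensins are related in sequence, so their promoters are not independent.

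Genes drawn by keyword as cytosolic ribosomal proteins, structural parts of the translation machinery, had a median difference of -0.12 over 313 genes. Of these 28.4% lay above 0 (53.7% of all genes). The keywords also caught AT2G07675, which resembles the mitochondrial genome and had no ratio, so organelle ribosomal proteins may be among the 313. Their shift was small for each gene and spread over the family, with quartiles of -0.26 and 0.02 and no gene at 1 or more in size. In WT 83 of the 313 rose with salt and 1 fell, and in 6-6 23 rose and 9 fell. The median response was 0.19 in WT and 0.07 in 6-6. Over all genes 11.4% rose and 10.8% fell in WT, and 13.7% rose and 10.3% fell in 6-6. On MS none was higher in 6-6 and 2 were lower (0.885% and 1.93% of all genes), and on NaCl 2 were higher and 22 lower (2.96% and 3.69% of all genes). The highest of the 4 classes by mean level had a median difference of -0.02. AT5G45775, of the ribosomal L5P family, went from 450 to 599 FPKM in WT and from 553 to 468 FPKM in 6-6, a difference of -0.65 that passed with the error from the p-value alone. AT3G09680, an S12/S23 family protein, had -0.95, from 9.69 to 11.5 FPKM in WT and from 12.8 to 7.89 FPKM in 6-6. At the other end AT1G29070, a ribosomal protein L34, had 0.68, and AT2G27535, of the L10A family, had 0.95 from levels near 0.3 FPKM on MS in both lines.

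Histones, which package newly made DNA, had a median difference of -0.14 over 44 genes with 27.3% above 0 (53.7% of all genes). None rose with salt in either line (11.4% of all genes in WT, 13.7% in 6-6). The number that fell was 4 in WT and 14 in 6-6 (10.8% and 10.3% of all genes). Differences over all 44 ran from -0.86 to 1.97, with 1 at 1 or above and none at -1 or below (1.09% and 0.656% of all genes). The 4 genes with the largest differences at 5 FPKM or more all lay below 0. AT3G46320 went from 183 to 198 FPKM in WT and from 207 to 155 FPKM in 6-6 (-0.52, with the near-identical copy AT3G45930), AT1G07820 had -0.49, AT5G59970 had -0.45 and AT5G10400 had -0.37. Proteasome subunits, which degrade tagged proteins, had a median of -0.07 over 39 genes and stayed between -0.27 (PBE1) and 0.12. The chaperones HSP70, HSP90 and HSP101 had a median of -0.10 over 22 genes with 17 below 0 (46.3% of all genes). Among them Hsp70-2 went from 14.4 to 13.4 FPKM in WT and from 16.2 to 23.2 FPKM in 6-6 (0.63), and HSP90.1 from 6.32 to 7.29 FPKM in WT and from 9.51 to 7.67 FPKM in 6-6 (-0.52).

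Kinesins, the microtubule motors that include those of the dividing cell, lay the other way from the histones. Their median was 0.13 over 36 genes, with 80.6% above 0 (53.7% of all genes). In WT 4 rose and 8 fell (11.4% and 10.8% of all genes), and in 6-6 3 rose and 2 fell (13.7% and 10.3%). The members were close to each other, with quartiles of 0.03 and 0.26 and a highest difference of 0.54. Among those at 5 FPKM or more the largest were ATK5 (0.32), HIK, a kinesin of cytokinesis (0.29), AT5G02370 (0.26) and ATK2 (0.25), and ATK2 went from 25.6 to 19.7 FPKM in WT and from 21.5 to 19.7 FPKM in 6-6. Kinesin genes are long, with a median span of 5651 bases, and of 4 equal classes by span the longest had a median difference of -0.01. The 3 cell division markers had differences between 0.03 and 0.39. Whether the share of dividing cells moved with these families was not tested, and in such bulk samples fewer cells of a type and less RNA per cell cannot be told apart.

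**Figure D4:**
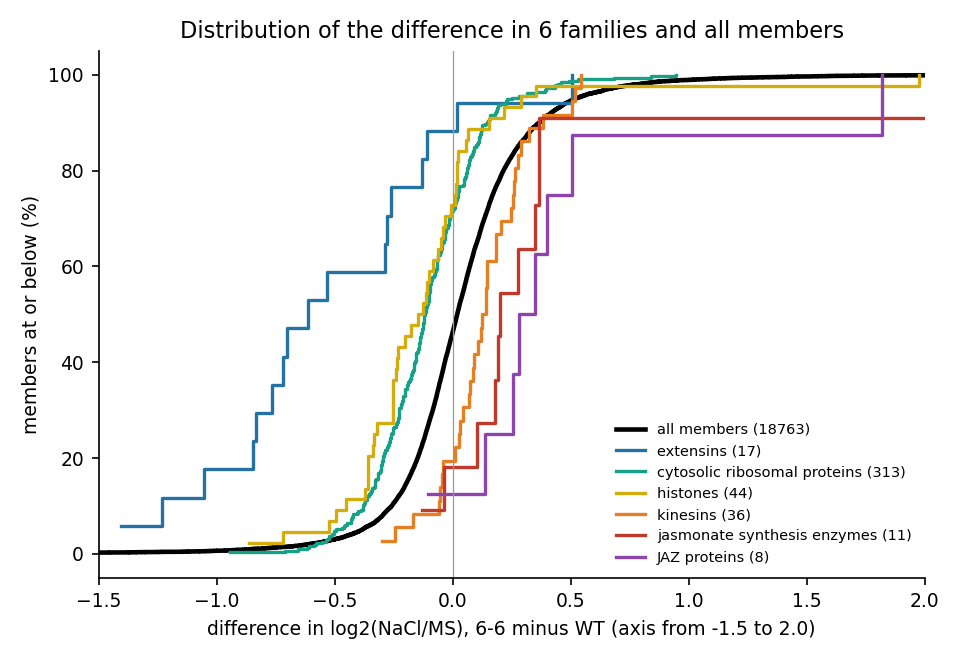
Cumulative share of genes (y axis, percent) at or below a difference in salt response (x axis, 6-6 minus WT, log2 scale) for all 18763 genes and 6 families. Extensins, ribosomal proteins and histones lie left of all genes, and kinesins, jasmonate synthesis enzymes and JAZ proteins lie right of them; values beyond the axis, such as AOC2 at 2.30, are not drawn.

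Most jasmonate genes lay above 0, where 53.7% of all genes did. Of 11 jasmonate synthesis enzymes 9 did (81.8%), with a median of 0.20 and responses of -0.14 in WT and 0.20 in 6-6 in the median. In WT 1 rose and 3 fell (11.4% and 10.8% of all genes), and in 6-6 3 rose and 2 fell (13.7% and 10.3%). Besides AOC2, OPCL1 (0.37), AOC3 (0.37), LOX6 (0.35) and the allene oxide synthase gene AOS (0.28) had the largest differences. AOC3 went from 108 to 112 FPKM in WT and from 98.8 to 132 FPKM in 6-6. The JAZ proteins, repressors that jasmonate itself induces, had a median of 0.32 over 8 genes with 7 above 0. None rose in WT and 2 fell (11.4% and 10.8% of all genes), and in 6-6 4 rose and none fell (13.7% and 10.3%). JAZ10 stood at 3.02 FPKM in WT on MS, 2.78 FPKM in WT on NaCl, 1.67 FPKM in 6-6 on MS and 5.43 FPKM in 6-6 on NaCl. Only 6-6 on NaCl was high, and the difference was 1.82 (adjusted p 1; 0.0556 with the error from the p-value alone). JAZ3 had 0.51, JAZ1 0.40 and JAZ11 0.35, and the 3 went down in value in WT. In 6-6 JAZ3 went up, while JAZ1 (-0.12) and JAZ11 (-0.02) again went slightly down in value.

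The 9 defensins, small antimicrobial peptides, had the highest median, 0.43, but only 5 lay above 0 and the range ran from -2.15 to 1.14. Over all genes 53.7% lay above 0, the share to set beside the counts of each family here. AT5G33355 went from 44.8 to 24.3 FPKM in WT and from 21.9 to 23.9 FPKM in 6-6 (1.009, with the near-identical copy AT3G59930), and AT2G36255 had -2.15 with an implied standard error of 3.05. A further defensin-like gene, AT4G11393, had no ratio because it is listed at 0 in WT on NaCl. Jacalin and mannose-binding lectins, carbohydrate-binding proteins, had a median of 0.19 over 24 genes with 17 above 0, and 5 were higher in 6-6 than in WT on NaCl and 3 lower (2.96% and 3.69% of all genes). AT1G33790 went from 1.20 to 1.63 FPKM in WT and from 1.13 to 5.30 FPKM in 6-6 (1.79), AT1G60095 had 1.43, AT5G35940 0.92, from 22.8 to 25.1 FPKM in WT and from 15.5 to 32.3 FPKM in 6-6, and JAL31 0.53. Protease inhibitors had a median of 0.15 over 21 genes with 16 above 0 and none at 1 or more in size, and CCP3 (0.47) had the largest difference among those at 5 FPKM or more. WRKY factors, regulators of defence and stress genes, had a median of 0.13 over 54 genes with 68.5% above 0. WRKY21 (0.92) and WRKY18 (0.48) lay above 0. WRKY30 lay the other way, rising from 1.35 to 6.76 FPKM in WT and from 2.01 to 3.11 FPKM in 6-6 (-1.69), and WRKY53, in a shared locus, had -0.80.

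LEA proteins and dehydrins, which protect cells that lose water, did not move as one. Their median was -0.07 over 27 genes. In WT 16 rose and 1 fell (11.4% and 10.8% of all genes), and in 6-6 13 rose and 1 fell (13.7% and 10.3%). They stand out by spread, as 5 of 27 (18.5%) were at least 1 apart, against 1.75% of all genes. RAB18 is described above. LEA4-5 went from 6.35 to 17.2 FPKM in WT and from 7.61 to 10.03 FPKM in 6-6 (-1.04), a rise called in WT and not in 6-6. The dehydrin AT4G38410 rose in both lines and more in value in 6-6, from 4.39 to 15.9 FPKM in WT and from 3.91 to 38.5 FPKM in 6-6 (1.44). LEA14 had 0.50 and KIN2, a cold- and ABA-induced gene, 0.42, from 1147 to 1332 FPKM in WT and from 1535 to 2380 FPKM in 6-6.

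Among single hormone genes, singled out after their values were seen, NCED3, the enzyme that limits stress-induced ABA synthesis, went from 4.12 to 5.07 FPKM in WT and from 4.77 to 3.06 FPKM in 6-6 (-0.94), and PYL2, an ABA receptor, had -1.25. The ACC synthases ACS7 and ACS5, which make the precursor of ethylene, had -0.98 and -0.79 (the 7 ethylene synthesis genes had a median of -0.06 and reached 0.59), with ACS7 at 3.94 and 6.26 FPKM in WT and 3.83 and 3.07 FPKM in 6-6. GH3.3, which conjugates auxin, had -1.002. The 14 GH3 enzymes as a family had a median of -0.07, with 6 above 0 and a highest difference of 0.39. The 15 gibberellin and cytokinin enzymes had a median of -0.02 and ran from -1.34 to 0.87. No family of ABA synthesis or receptor genes was drawn, so NCED3 and PYL2 stand alone. NCED3, ACS7, ACS5 and GH3.3 passed with the error from the p-value alone and PYL2 did not. The Aux/IAA repressors had a median of -0.08 over 22 genes, with a highest difference of 1.09 at IAA30, from 2.104 to 0.796 FPKM in WT and from 2.12 to 1.71 FPKM in 6-6, and with IAA31 at 0.74, IAA33 at -0.54, IAA10 at -0.43 and AXR3 at -0.40. The SAUR proteins, small auxin-induced growth regulators, had 16 of 32 above 0 (53.7% of all genes) and 4 at least 1 apart (1.75% of all genes). Of the 4, 1 was higher and 3 were lower (1.09% and 0.656% of all genes). The highest was AT1G17345, at 2.52 with values below 2 FPKM in every group. The neighbours AT4G34800 and AT4G34810 had -1.03 and -0.86, AT4G34800 going from 51.3 to 53.7 FPKM in WT and from 60.5 to 31.0 FPKM in 6-6, and SAUR36 had 0.67. Peptide hormones, short secreted signals, had a median of 0.13 over 27 genes with quartiles of -0.22 and 0.57. CLE2 (0.92), CLE13 (0.89) and the phytosulfokine precursor PSK5 (0.84) lay above 0 and CLE1 (-0.79) below.

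Nitrate transporters had a median of -0.17 over 9 genes (0.0092 on the log2(FPKM + 1) scale), with NRT1.8 (shared locus) at -0.89 and NRT2:1 at -0.55. Both were strongly up in both lines, NRT2:1 from 3.62 to 86.4 FPKM in WT and from 2.60 to 42.4 FPKM in 6-6. Dirigent proteins, which guide lignin and lignan coupling, had a median of -0.15 over 18 genes. With salt 2 rose and 5 fell in WT (11.4% and 10.8% of all genes), and 2 rose and 11 fell in 6-6 (13.7% and 10.3%). ESB1, needed for the Casparian strip of the endodermis, went from 193 to 184 FPKM in WT and from 215 to 142 FPKM in 6-6 (-0.52; shared locus), and AT4G11190 had -0.74. The endodermal marker genes, of which ESB1 is one, summed to 556 and 472 FPKM in WT and 555 and 378 FPKM in 6-6, and CASP5, a Casparian strip membrane protein, went from 24.0 to 13.7 FPKM in WT and from 23.05 to 6.39 FPKM in 6-6 (-1.04). Terpene synthases and oxidosqualene cyclases had a median of -0.12 over 22 genes, though the 4 largest differences at 5 FPKM or more lay above 0, among them MRN1, the marneral synthase (0.60), and THAS1, the thalianol synthase (0.39). GDSL lipases, wall and cutin esterases among them, had a median of 0.18 over 37 genes with 26 above 0 (53.7% of all genes). The pollen Ole e 1 and extensin-like proteins, a family distinct from the extensins, had 0.26 over 13 genes with 9 above 0. In that family 2 rose in WT and 7 in 6-6 (11.4% and 13.7% of all genes). Without genes in a shared locus its median was 0.098. MOP10 went from 170 to 200 FPKM in WT and from 167 to 281 FPKM in 6-6 (0.51).

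**Figure D5:**
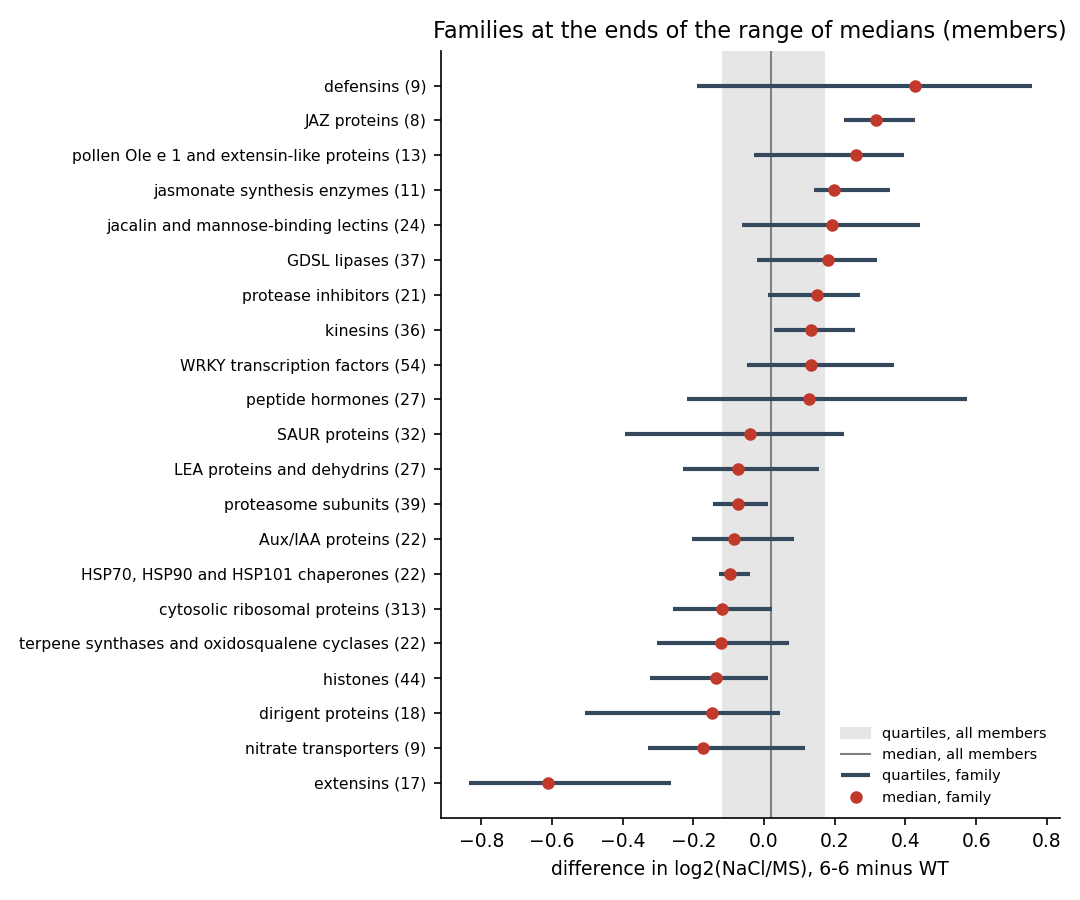
Median (red) and quartiles (dark bars) of the difference in salt response, 6-6 minus WT on the log2 scale, in the 21 families described, with the number of genes in parentheses. The grey band and line give the quartiles and median of all 18763 genes; only the bar of the extensins lies wholly below the band and that of the JAZ proteins wholly above it.

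The other 63 families with 8 or more genes had medians between -0.07 and 0.13. Chosen after their values were seen, class III peroxidases and lipid transfer proteins are given because they hold several of the largest single differences. The peroxidases, which cross-link wall proteins and lignin, had a median of 0.07 over 60 genes. Of these 4 were at 1 or above and 3 at -1 or below (1.09% and 0.656% of all genes). AT5G06730 rose from 1.64 to 3.42 FPKM in WT and from 1.19 to 12.96 FPKM in 6-6 (2.39), and its neighbour PA2 from 0.850 to 2.202 FPKM in WT and from 0.818 to 7.60 FPKM in 6-6 (1.84). PER4 lay the other way, from 35.4 to 39.6 FPKM in WT and from 44.6 to 23.7 FPKM in 6-6 (-1.08; passed with the error from the p-value alone). The lipid transfer proteins, small secreted lipid binders, had a median of 0.07 over 49 genes. Of these 4 were at 1 or above and none at -1 or below (1.09% and 0.656% of all genes). LTP2 rose from 12.3 to 29.0 FPKM in WT and from 20.6 to 117 FPKM in 6-6 (1.28), and AT4G22610 went from 24.8 to 14.6 FPKM in WT and from 18.3 to 23.2 FPKM in 6-6 (1.11).

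Single genes outside the families drawn by keyword and described here complete the ends of the range at 5 FPKM or more. The highest was AT4G33720, a CAP superfamily protein related to pathogenesis-related protein PR-1, at 9.03 and 1.68 FPKM in WT and 1.19 and 1.91 FPKM in 6-6 (3.11; adjusted p 0.4, and 0.00989 with the error from the p-value alone). WT on MS alone was high. The trypsin inhibitor TI1, which the keywords did not place among the protease inhibitors, was high in 6-6 on NaCl alone, at 5.09 and 7.67 FPKM in WT and 6.62 and 54.2 FPKM in 6-6 (2.44). Responses above 0 that were larger in value in 6-6 included RNS1, a secreted ribonuclease (1.15), WOX5, which marks the quiescent centre (1.12), TFL1 (1.11), G3Pp2 (1.06), MPL1, a lipase (1.07), and EXP3, an expansin (1.35). ALMT1, a malate channel, fell in WT from 22.5 to 11.4 FPKM and went from 16.6 to 18.1 FPKM in 6-6 (1.11). MES13 (1.17) and ALMT1 passed with the error from the p-value alone. LSH3 had 1.18, WDL1 0.96 and GSTU18 0.95.

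At the low end, ACP5, an acyl carrier protein, had -1.48 and GSTU12, a glutathione transferase, rose from 0.355 to 11.1 FPKM in WT and from 0.631 to 7.60 FPKM in 6-6 (-1.37). MYB67 rose steeply in both lines (-1.12). The iron-deficiency regulators BHLH100 and bHLH38 had -1.03 and -0.97, and bHLH38 went from 20.9 to 21.8 FPKM in WT and from 27.5 to 14.7 FPKM in 6-6. OCT3, an organic cation transporter, fell from 20.2 to 3.08 FPKM in WT and from 21.3 to 1.598 FPKM in 6-6 (-1.02), and BBX30 had -1.04. HKT1, the root sodium transporter that retrieves sodium from the xylem, went from 13.9 to 13.8 FPKM in WT and from 5.76 to 7.95 FPKM in 6-6, a difference of 0.48. HAK5, a high-affinity potassium transporter, had -0.20 at 0.871 and 1.04 FPKM in WT and 4.34 and 4.51 FPKM in 6-6. Neither passed the test.

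The cut of the root tip was checked with 34 markers of 10 tissues or cell states, none of which was at 0 in any group. One of them, LHCB1.1, was under the FPKM minimum. The differences of the other 33 had a median of 0.02 and lay between -0.52 and 1.12, and WOX5 was the only one of at least 1 in size. Green tissue markers summed to 15.4 and 38.2 FPKM in WT and 10.8 and 34.1 FPKM in 6-6. Of the 15 genes without a ratio, HSP17.6A (AT5G12030), a small heat shock protein, is listed at 0 on MS in both lines and at 2.503 FPKM in WT and 1.13 FPKM in 6-6 on NaCl, and LBD20 (AT3G03760) is listed at 0 in 6-6 on MS. Just inside the FPKM minimum, the 100 genes whose deciding value lay between 1.00 and 1.08 FPKM had a median difference of 0.09 with 14 at least 1 apart. Just outside, the 100 genes between 0.934 and 1.00 FPKM had a median of 0.15 with 18 at least 1 apart. Across genes, which are not independent and share the same 4 groups, the difference had a Spearman correlation of -0.11 with mean FPKM and of -0.07 with gene span.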

How the data were processed

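RNA was sequenced from 12 root-tip samples, 3 in each of 4 groups. HISAT2, HTSeq and edgeR, and the genome build TAIR10, are listed without versions in the submitters' processing notes, while per the file headers the tables have the gene-level layout of Cuffdiff. The authors deposited 1 FPKM value per group and gene, a signed test statistic (a score), and a p-value and q-value for each comparison. The smallest p-value in the deposited tables is 5e-05, reached by 2023 genes in WT and 2153 in 6-6, so implied errors of strongly changed genes are too large.

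The response of each line is the log2 of NaCl over MS, from the deposited FPKM in that line's table. The difference of the responses was tested with implied standard errors (median 0.30 per difference) and Benjamini-Hochberg adjustment over 18763 genes, of which 1 had no finite error (Python 3.11, scipy 1.17.1, statsmodels 0.14.6). No pseudocount was used. The depth of the libraries is unknown, so no counting interval is given. The test was tested on simulated data. Noise there was drawn from the errors implied by the p-values, so it cannot show whether those errors are right for these samples. Near-identical copies were found with BLAST 2.17.0. Positions of promoters come from TAIR10.1.

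Families came from keywords in the gene descriptions. Those with 8 or more genes were described when among the 10 highest or 10 lowest medians or the 5 highest shares at 1 or more in size. Genes were named as the 15 highest and 15 lowest with a symbol, 5 FPKM and a salt call, none of which passed the test, then all opposite calls, and the 4 largest of each described family at 5 FPKM or more. Members and lists were chosen with earlier results of these data known. Genes in a shared locus have uncertain values. Other error estimates, FPKM minimums, scalings and thresholds were tried as alternatives.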

Additional observations from a re-analysis of the deposited data

Results flagged for a closer look

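RAB18 was singled out because its salt response differed between the lines by the test of the difference itself, with -3.45 on the log2 scale (adjusted p 0.00383). All 4 of its group values were at or below 2.08 FPKM.

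The organelle genes lie outside the nuclear rule and were singled out because they carried a signal there. The 67 mitochondrial and plastid genes that met the same conditions had a median response of 0.00 in WT and -1.64 in 6-6, and a median difference of -1.58. Their median log2 ratio of 6-6 to WT was 1.27 on MS and -0.28 on NaCl, and 6-6 on MS was the highest group for 64. The non-coding gene AT1G15405 was also high there, at 29.1 and 40.9 FPKM in WT and 98.8 and 38.8 FPKM in 6-6. The difference lay below 0 for 66 of the 67 and at or below -1 for 55. Among nuclear genes, 8 with a difference resemble the mitochondrial genome or rRNA in sequence, and 6 of them lay at or below -1 (median -1.94), among them AT2G07698 (-1.83) and the rRNA gene AT3G41979 (-2.06).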

How the results depend on the processing

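No paired analysis was possible because the files hold 1 value per group, so the planned replicate block and the fits with a replicate left out were not run. The number of genes that passed the test of the difference depended on the error used. It was 1 (0 higher, 1 lower), and became 58 (31 higher, 27 lower) with the error from the p-value alone, 22 (11 and 11) with that from the statistic alone, 2 (both lower) after centring on the median and 0 at a minimum of 5 FPKM. Counts of genes at least 1 apart rest on weak genes. The 205 higher and 123 lower became 49 and 29 at a minimum of 5 FPKM, 74 and 43 with log2(FPKM + 1), and 737 and 416 at 1.5-fold. At a minimum of 5 FPKM, genes responding more, less or oppositely in 6-6 numbered 26, 9 and 23, and opposite calls 12; opposite calls were 3 at an authors' q-value below 0.01. Leaving out organelle-like genes, added after seeing the data, moved no count by over 1.5 times. The sign reversed for the SAUR median at 5 FPKM (0.081), the nitrate transporter median with log2(FPKM + 1) (0.0092) and EXT4 after centring (-0.00089). Other family medians and named genes kept their sign under each alternative run, but sizes moved by over 0.1 for 59 of 182 named genes with log2(FPKM + 1), where RAB18 had -1.72. At 5 FPKM the median of terpene synthases became -0.22 and of defensins 0.16; without shared loci that of defensins became 0.56 and of Ole e 1 proteins 0.098.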
